A study of Mus musculus with 12 samples.

Results

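Hemoglobin and erythroid genes were followed in bulk RNA-seq of mouse oral tumors, with 5 genes at the center: the adult alpha-globin genes Hba-a1 and Hba-a2, the adult beta-globin genes Hbb-bs and Hbb-bt, and Alas2. They were taken by symbol from the deposited expression table, which held 5 of 5 among 55401 genes, and 5 of 5 passed the filter of at least 1 FPKM in at least 3 libraries. FPKM divides the fragments of a gene by its transcript length and by the fragments of its library, so levels of different genes can be set side by side per length. Per the labels, the 12 tumors were grown by injecting MTC-Q1 mouse oral cancer cells into the mouth of C57BL/6 mice, and the sample titles name the Q1-2 subline. Dosing began at a tumor volume of 100 mm3. Each of 4 groups held 3 libraries. Ctrl-IgG received a control isotype and aCSF1R an antibody that binds CSF1R, a receptor of macrophages. IL-10-Fc received the cytokine interleukin-10 carried on an Fc fragment, and BF10 a fusion protein that joins interleukin-10 to the CSF1R antibody. The labels gave 4 doses in 1 place and 6 in another, and the number was not resolved. Nothing in the sources said whether each library was a separate mouse, so p-values measure the spread between these libraries.

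Hemoglobin carries oxygen in red cells as a tetramer of alpha and beta chains around heme. The chains are made in erythroid precursors of the marrow and spleen, and circulating reticulocytes and young red cells still hold globin mRNA, which therefore travels with blood into a solid tissue. Alas2 is the erythroid form of the first enzyme of heme synthesis and is transcribed in the same precursors. Inbred mice carry either the "single" beta-globin haplotype, with Hbb-bs and Hbb-bt, which C57BL/6 has, or the "diffuse" haplotype, with Hbb-b1 and Hbb-b2. Hbb-b1 and Hbb-b2 were not analysed here, so the ratio of Hbb-bs to Hbb-bt below cannot tell which haplotype a library carries. In bulk tissue, fewer cells of a type and less RNA per cell cannot be told apart.

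The copies of each pair are nearly identical, which bears on every value below. In the GENCODE annotation of GRCm38, Hba-a1 (ENSMUSG00000069919) lies at chr11:32283511-32284465 on the plus strand and Hba-a2 (ENSMUSG00000069917) at chr11:32296489-32297298, also on the plus strand. Hbb-bs (ENSMUSG00000052305) lies at chr7:103826534-103828096 and Hbb-bt (ENSMUSG00000073940) at chr7:103812524-103813996, both on the minus strand, and each globin gene has 3 exons. Alas2 (ENSMUSG00000025270) lies at chrX:150547375-150570638 on the plus strand with 11 exons. The coding sequences of Hbb-bs and Hbb-bt span 444 bases and differ at 1 base, C417T, counted from 1 at the A of the start codon with the Hbb-bs base first, and at 0 amino acids. Those of Hba-a1 and Hba-a2 span 429 bases and differ at 1 base, C381T, with the Hba-a1 base first, and at 0 amino acids. The stretches around these bases are shown because they are the only coding positions that separate the copies, and the differing base is in capitals:
Hbb-bs: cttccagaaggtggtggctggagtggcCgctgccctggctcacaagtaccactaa
Hbb-bt: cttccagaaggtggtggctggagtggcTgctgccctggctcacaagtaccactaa
Hba-a1: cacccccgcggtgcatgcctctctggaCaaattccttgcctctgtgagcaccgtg
Hba-a2: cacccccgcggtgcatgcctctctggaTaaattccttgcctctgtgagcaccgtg

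A 75-base read from most of either transcript fits both copies. Of all 75-base windows, 62.2% of those in Hba-a1 and 81% of those in Hba-a2 also occurred in the partner, as did 64.3% of those in Hbb-bs and 56.6% of those in Hbb-bt, and 0 windows occurred in another gene. The split within a pair, as estimated by the authors' quantifier RSEM, is therefore uncertain, while the sum of a pair is less affected.

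Promoters of 3 globin genes and of Alas2 are shown, as regions that erythroid factors are known to bind. Each is the 120 bases before the RefSeq start on GRCm38.p6, read 5′ to 3′ on the gene's strand at chr7:103827929-103828048 for Hbb-bs, chr7:103813924-103814043 for Hbb-bt, chr11:32296372-32296491 for Hba-a2 and chrX:150547297-150547416 for Alas2. The GENCODE genes above begin upstream of these RefSeq starts. The Hbb-bs stretch therefore lies inside its GENCODE gene, and those of Hbb-bt, Hba-a2 and Alas2 overlap theirs in part. Capitals mark, on either strand, the TATA-like motif ATATAA, the box CCAAT, the box CACCC and the core GATA of the sites of GATA factors, and some matches touch:
Hbb-bs: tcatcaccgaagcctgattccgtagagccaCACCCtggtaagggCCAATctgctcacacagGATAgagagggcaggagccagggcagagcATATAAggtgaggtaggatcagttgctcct
Hbb-bt: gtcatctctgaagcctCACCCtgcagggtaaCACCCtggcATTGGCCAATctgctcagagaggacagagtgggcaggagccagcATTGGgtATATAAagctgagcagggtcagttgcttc
Hba-a2: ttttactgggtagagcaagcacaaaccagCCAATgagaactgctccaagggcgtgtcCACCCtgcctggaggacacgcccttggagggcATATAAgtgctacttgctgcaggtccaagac
Alas2: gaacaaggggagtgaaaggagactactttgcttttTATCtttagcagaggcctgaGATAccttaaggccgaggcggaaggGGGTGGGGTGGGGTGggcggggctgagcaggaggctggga

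In the 250 bases before the start, each globin promoter held all 4 motifs, whereas that of Alas2 held 3 adjacent CACCC matches on the reverse strand, 2 GATA matches, 0 ATATAA and 0 CCAAT. The Hba-a1 window was the same as that of Hba-a2 over 247 bases at an offset of 3. Over 32851 mouse promoters of this length, ATATAA occurred in 9.1%, CCAAT in 33.8%, CACCC in 52% and GATA in 53.6%, so a match is a description of the letters only.

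Before the levels, the libraries were compared. FPKM sums were 819001 to 976950 in 4 libraries (Ctrl-IgG 2, IL-10-Fc 1, IL-10-Fc 2 and BF10 1), in which mitochondrial genes held 6.57% to 9.04% of the sum, and 637596 to 701275 in the other 8, with 2.99% to 3.61%. Depth relative to Ctrl-IgG 1, estimated from the steps between low FPKM values, was 0.940 to 1.41, and absolute read counts were not used here. H2-Ea, an MHC class II gene that C57BL/6 mice do not express, was at most 0.27 FPKM in the 6 libraries without an IL-10 agent and at least 553 FPKM in the 6 with one. Xist, transcribed from the inactive X of females, was at most 0.04 against 17.1 to 30.7 FPKM in the same sets, and the Y-linked gene Eif2s3y was 4.23 to 11.3 FPKM without IL-10 and at most 0.05 with it, apart from 3.29 in BF10 3. The simple epithelial keratin Krt8 was at most 0.28 FPKM without IL-10 and 169 to 618 FPKM with it. The labels give the same implanted cells and mouse strain for all 12. These differences run with the IL-10 agents in all 12 libraries, and the agent and whatever else separates the sets cannot be told apart. The first number in the sample titles, whose meaning the labels do not state, also differed: it was 4 or under in 4 libraries without and 3 with IL-10, and 5 or over in 2 and 3.

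Hbb-bs was the highest of the 5 genes and Alas2 the lowest in each library. The order Hbb-bs, Hba-a2, Hba-a1, Hbb-bt, Alas2 held in 11 of 12 libraries. The exception was IL-10-Fc 2, where Hbb-bt at 44.29 FPKM stood above Hba-a1 at 39.72 FPKM. For 5 of 5 genes the group means stood in the order Ctrl-IgG, aCSF1R, BF10, IL-10-Fc from low to high. Neighbors in that order overlapped, apart from Hba-a1 in aCSF1R and BF10, and the order itself was not tested.

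Hbb-bs had the higher FPKM of the beta-globin pair, whose annotated chains are the same. Its FPKM was 91.98, 58.12 and 182.85 in Ctrl-IgG, 184.08, 71.63 and 215.12 in aCSF1R, 459.99, 347.41 and 144.40 in the IL-10-Fc libraries and 328.70, 164.37 and 132.57 in BF10. The means were 111 ± 64.5 (SD, n = 3), 157 ± 75.5, 317 ± 159.9 and 209 ± 105 FPKM. IL-10-Fc 1, IL-10-Fc 2 and BF10 1 were the highest of the 12, and the remaining 3 libraries with an IL-10 agent lay inside the range of those without.

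Hbb-bt, the other beta-globin gene of the haplotype, was lower. It stood at 7.38, 6.17 and 18.37 FPKM in Ctrl-IgG and at 17.85, 7.14 and 22.22 FPKM in aCSF1R. In IL-10-Fc it stood at 70.85, 44.29 and 10.46 FPKM, and in BF10 at 43.72, 13.22 and 11.53 FPKM. The same 3 libraries were highest, and the means were 10.6 ± 6.72, 15.7 ± 7.76, 41.9 ± 30.3 and 22.8 ± 18.1 FPKM in the same order of groups.

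Hba-a2 had the higher FPKM of the alpha-globin pair in each library. It measured 55.93, 46.51 and 131.53 FPKM in Ctrl-IgG, 120.16, 47.55 and 127.50 in aCSF1R, 275.89, 116.02 and 127.06 in the IL-10-Fc libraries and 229.59, 147.83 and 113.36 in BF10. The means were 78.0 ± 46.6, 98.4 ± 44.2, 173 ± 89.3 and 164 ± 59.7 FPKM. Ctrl-IgG 1, Ctrl-IgG 2 and aCSF1R 2 were low, while the other 3 libraries without IL-10 lay within the range of those with it.

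Hba-a1, which encodes the same alpha chain, measured 24.61, 12.53 and 50.02 FPKM in Ctrl-IgG, 35.51, 16.90 and 45.55 in aCSF1R, 104.47, 39.72 and 34.00 in IL-10-Fc, with BF10 at 69.82, 53.09 and 46.02. The means were 29.1 ± 19.1, 32.7 ± 14.5, 59.4 ± 39.1 and 56.3 ± 12.2 FPKM. All BF10 libraries lay above all aCSF1R libraries, by 46.02 against 45.55 FPKM at the nearest, which was the only 1 of 30 pairs of groups over the 5 genes without overlap. Over all tested genes, 34.6% of such pairs did not overlap, and 19.8% of genes lay higher in every BF10 than in every aCSF1R library.

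Alas2 stood near 1 FPKM. It measured 0.59, 0.52 and 2.15 FPKM in Ctrl-IgG, 1.80, 0.91 and 1.90 in aCSF1R, 3.38, 1.43 and 1.81 in the IL-10-Fc libraries and 2.72, 1.64 and 1.24 in BF10, with means of 1.09 ± 0.922, 1.54 ± 0.545, 2.21 ± 1.03 and 1.87 ± 0.766 FPKM. Ctrl-IgG 3 lay above 4 of the 6 libraries with an IL-10 agent.

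**Figure D1:**
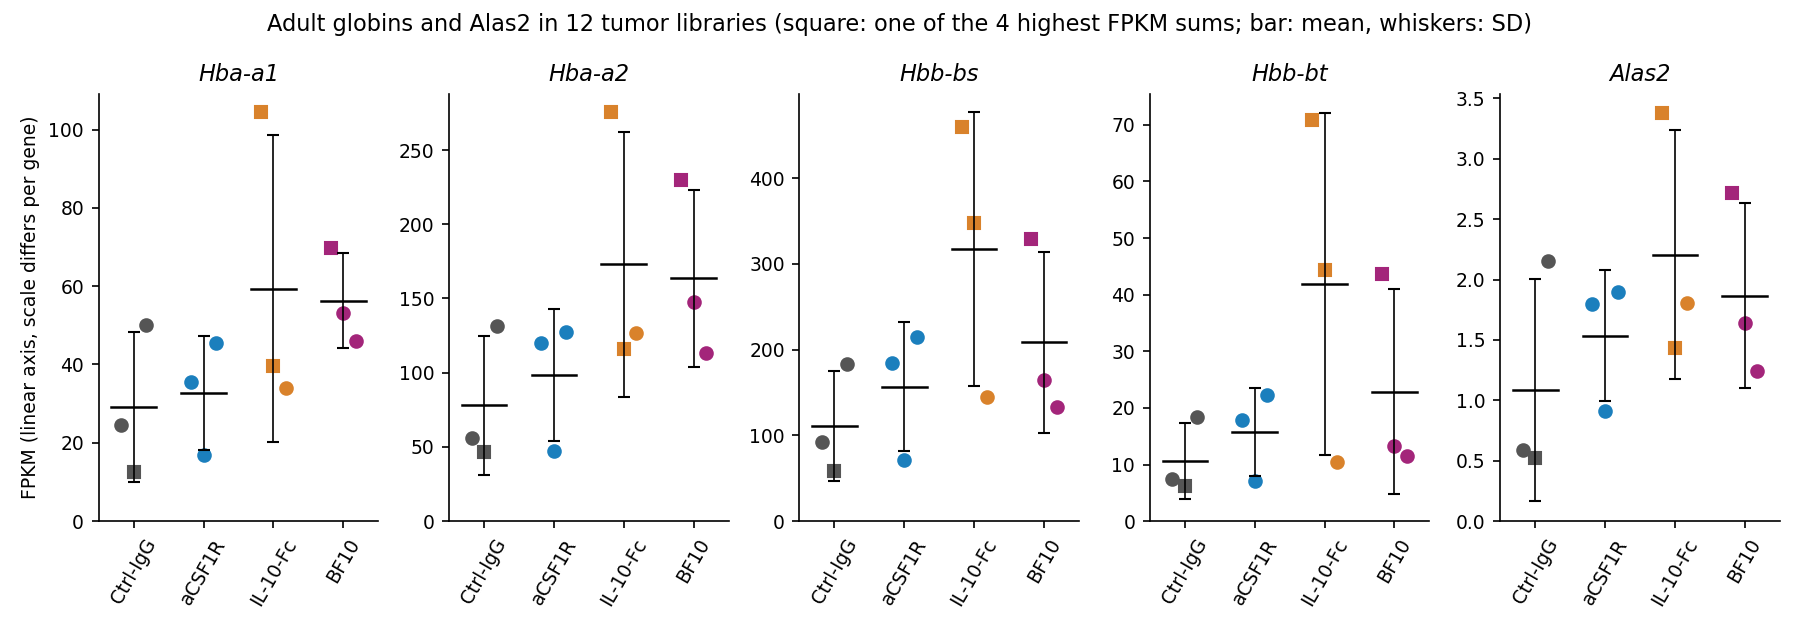
FPKM (linear axes) of Hba-a1, Hba-a2, Hbb-bs, Hbb-bt and Alas2 in 12 libraries by group. Points are libraries, squares the 4 libraries with the highest FPKM sums, bars the group means and whiskers the SD (n = 3). The highest Hbb-bs value is 459.99 FPKM in an IL-10-Fc library, and groups overlap in all but 1 pair.

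The 4 globins and Alas2 went up and down together over the libraries. Pearson's r of log2(FPKM + 1) over the 12 libraries was 0.972 for Hbb-bs with Hbb-bt, 0.963 for Hba-a1 with Hba-a2 and 0.952 for Hba-a2 with Alas2. The copies of the first 2 pairs share most of their 75-base windows, and the part of read division in their r was not tested. Alas2 shares no 75-base window with another gene. For the summed globin FPKM with Alas2, r was 0.915 and Spearman's rho 0.853. It was 0.892 with the group means removed and 0.877 without the 2 farthest libraries. All these values share each library's depth and scaling. The sum of the 4 globins was 157 to 383 times the Alas2 level in FPKM.

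**Figure D2:**
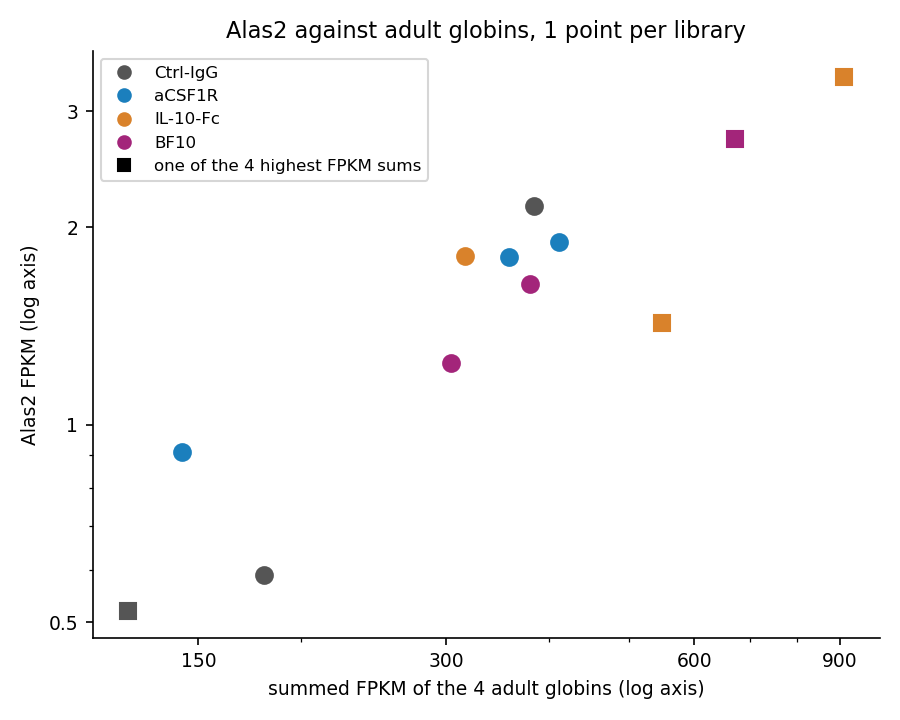
Alas2 FPKM against the summed FPKM of Hba-a1, Hba-a2, Hbb-bs and Hbb-bt in 12 libraries (both axes logarithmic), by group. Libraries with more globin have more Alas2 (Pearson's r 0.915, log scale), and the groups overlap along both axes.

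Within the beta-globin pair, the ratio of Hbb-bs to Hbb-bt showed no difference between groups that the tests called. Whether the libraries share a beta-globin haplotype was not tested. The ratio was 12.5, 9.42 and 9.95 in Ctrl-IgG, 10.3, 10.03 and 9.68 in aCSF1R, 6.49, 7.84 and 13.8 in the IL-10-Fc libraries and 7.52, 12.4 and 11.5 in BF10. The means were 10.6 ± 1.63, 10.01 ± 0.316, 9.38 ± 3.89 and 10.5 ± 2.61. Hbb-bt thus made up 6.75% to 13.3% of the beta-globin FPKM. The 3 lowest ratios were in IL-10-Fc 1, IL-10-Fc 2 and BF10 1, and the highest was in IL-10-Fc 3. The 4 libraries with the highest FPKM sums are these 3 and Ctrl-IgG 2. Their ratios were 6.49 to 9.42, under the 9.68 to 13.8 of the other 8 libraries. The part of the FPKM sum in the ratio was not tested.

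On the log2 scale the ratio averaged 3.36 without and 3.25 with an IL-10 agent. The difference of -0.10 was not called in a two-sided exact permutation test of 6 against 6 libraries (p = 0.600, adjusted to 0.976 by Benjamini-Hochberg over 4 such quantities). An exact permutation test of the F statistic over the 4 groups gave p = 0.842. The direction turned with the title number. Among libraries numbered 4 or under the difference was -0.53 (exact permutation p = 0.0286, 35 arrangements), and among those numbered 5 or over it was 0.35 (exact permutation p = 0.1, the smallest that 10 arrangements allow). Without the 4 libraries of highest FPKM sum it was 0.26 (exact permutation p = 0.0714).

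Alpha relative to beta globin was lowest in IL-10-Fc 2 and IL-10-Fc 1, while BF10 1 lay within the range of the libraries without IL-10. The ratio of alpha to beta FPKM was 0.811, 0.918 and 0.902 in Ctrl-IgG, 0.771, 0.818 and 0.729 in aCSF1R, 0.717, 0.398 and 1.04 in the IL-10-Fc libraries and 0.804, 1.13 and 1.11 in BF10. IL-10-Fc 2 stood lowest, and the 3 libraries above 1 were the libraries with an IL-10 agent and a title number of 5 or over. The log2 difference with against without IL-10 was -0.01 (exact permutation p = 0.976). It was -0.44 at title numbers of 4 or under (exact permutation p = 0.0571) and 0.43 at 5 or over (exact permutation p = 0.1). Without the 4 libraries of highest FPKM sum it was 0.44 (exact permutation p = 0.0179, 56 arrangements).

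The ratio of Hba-a2 to Hba-a1 was 2.27, 3.71 and 2.63 in Ctrl-IgG, 3.38, 2.81 and 2.80 in aCSF1R, 2.64, 2.92 and 3.74 in the IL-10-Fc libraries and 3.29, 2.78 and 2.46 in BF10. The 2 highest ratios fell in a control and in an IL-10-Fc library. The log2 difference of Hba-a1 to Hba-a2 was -0.02 (exact permutation p = 0.861).

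**Figure D3:**
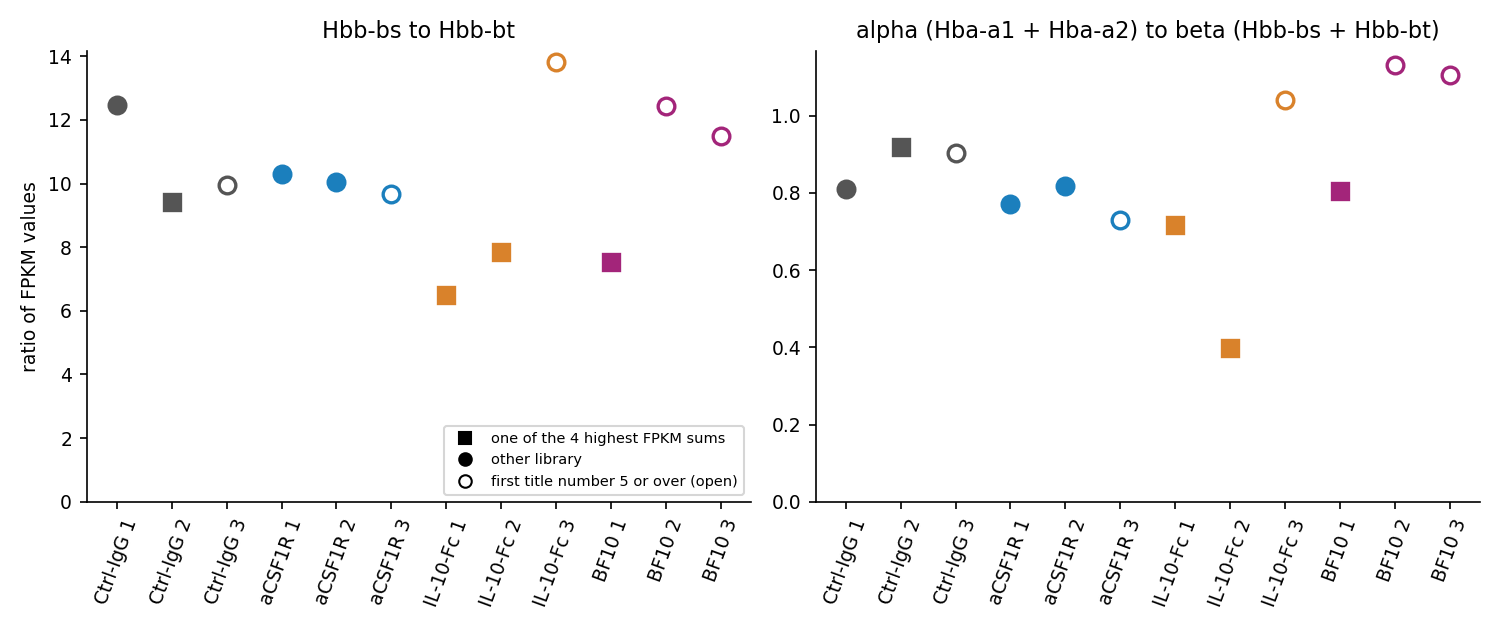
Ratio of Hbb-bs to Hbb-bt FPKM (left) and of alpha to beta globin FPKM (right) in each of 12 libraries by group. Squares are the 4 libraries with the highest FPKM sums and open symbols those with a first title number of 5 or over. Ratios in IL-10-Fc run from 6.49 to 13.8 on the left, against 9.68 to 10.3 in aCSF1R.

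The 4 globins together took 0.0151% to 0.0958% of the FPKM sum. The share was 0.0257%, 0.0151% and 0.0563% in Ctrl-IgG, 0.0520%, 0.0218% and 0.0590% in aCSF1R, 0.0958%, 0.0560% and 0.0482% in the IL-10-Fc libraries and 0.0785%, 0.0594% and 0.0452% in BF10. The 3 highest libraries without IL-10 reached the range of those with it. The share was 1.83-fold higher with an IL-10 agent, a log2 difference of 0.87 that was not called (exact permutation p = 0.0628, adjusted to 0.251 over the 4 quantities). Leaving out 1 library at a time, the unadjusted exact permutation p ran from 0.0325 to 0.113. It was 0.0346 without Ctrl-IgG 3, 0.0368 without aCSF1R 1 and 0.0325 without aCSF1R 3, the 3 highest shares without IL-10. At title numbers of 5 or over the difference was -0.19. Of the 24 tests of these 4 quantities between single groups, none could give an exact permutation p under 0.1, and the smallest adjusted value was 0.914.

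Changes of the 5 genes were tested with limma on log2(FPKM + 1) over 15813 genes, and a gene was called if its adjusted p fell under 0.05 and its fold change reached 1.5. Between aCSF1R and Ctrl-IgG, 0 of 5 genes were called and 0% of all genes. At an unadjusted p under 0.05 there were 0 of the 5 genes and 437 of all genes. The log2 differences were 0.26 to 0.54, each with an adjusted p of 0.958 (limma).

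In IL-10-Fc against Ctrl-IgG, 0 of 5 genes were called, while 33.7% of all genes were, and 3 of 5 had an unadjusted p under 0.05 (limma). So did 7142 of all 15813 genes. Hbb-bs was 1.51 higher on the log2 scale (SE 0.59, 95% interval 0.22 to 2.80, limma adjusted p = 0.0681), and Hbb-bt 1.67 (SE 0.73, limma adjusted p = 0.101). The alpha genes Hba-a2 and Hba-a1 were 1.18 and 1.03 higher, and Alas2 0.66, with limma adjusted p-values of 0.0985, 0.167 and 0.164. Without Ctrl-IgG 3, limma called 3 of 5 (Hbb-bs, Hba-a2 and Alas2), and without IL-10-Fc 3 it called 2 of 5 (Hbb-bs and Hbb-bt). Of all 15813 genes, it called 4093 and 8042 in these settings, against 5326 with all libraries.

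In BF10 against Ctrl-IgG, 0 of 5 genes were called against 24.9% of all genes, with 1 of 5 at an unadjusted p under 0.05 (limma). So were 5740 of all 15813 genes. The alpha genes differed most, by 1.15 for Hba-a2 and 1.12 for Hba-a1 on the log2 scale, and Hbb-bs, Hbb-bt and Alas2 by 0.95, 0.93 and 0.51. The limma adjusted p-values were 0.131 to 0.409. Without Ctrl-IgG 3, 1 of 5 was called, Hba-a2, and 3458 of all 15813 genes.

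BF10 and the other agents were then set beside each other. Against aCSF1R, limma called 0 of 5 genes and 25.0% of all genes, with 0 of 5 (5907 of all genes) at an unadjusted p under 0.05. The log2 differences were 0.17 to 0.86 (limma adjusted p 0.282 to 0.756). Against IL-10-Fc, 0 of 5 were called, 0 of 5 (828 of all genes) at an unadjusted p under 0.05, and 0.0126% of all genes were called. Hbb-bs was 0.56 and Hbb-bt 0.74 lower in BF10 as fitted, and Hba-a1, Hba-a2 and Alas2 differed by 0.09, -0.03 and -0.15, with limma adjusted p-values of 0.525 to 0.982. The interval for Hbb-bs, -1.85 to 0.73, leaves room for differences in both directions.

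A contrast of BF10 with the sum of the IL-10-Fc and aCSF1R effects over Ctrl-IgG called 0 of 5 genes and 0.00632% of all genes. At an unadjusted p under 0.05 there were 0 of 5 genes and 412 of all genes. The log2 values were -1.28 for Hbb-bt, -1.07 for Hbb-bs, -0.49 for Alas2, -0.39 for Hba-a2 and -0.17 for Hba-a1, each with a limma adjusted p of 0.9996.

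**Figure D4:**
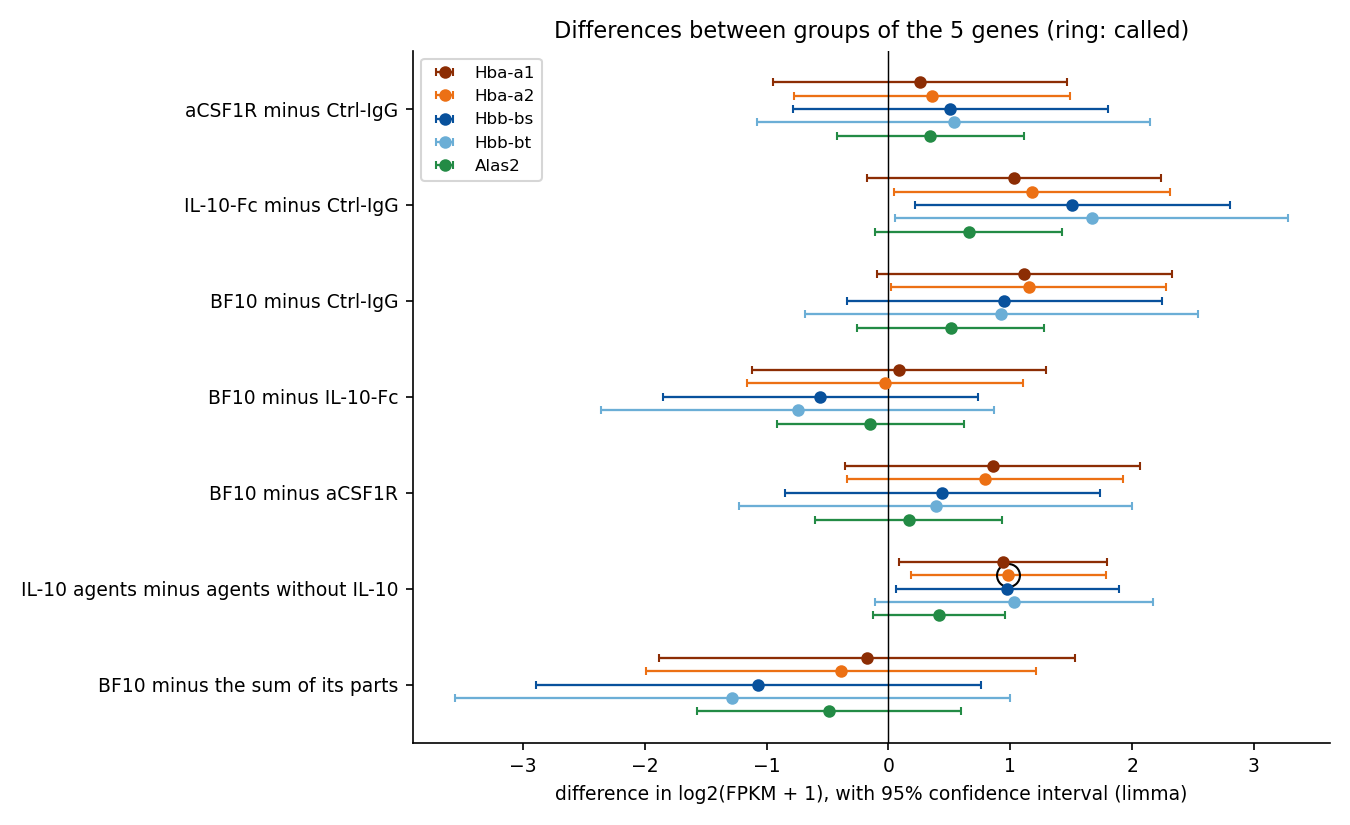
Log2 difference (limma, log2(FPKM + 1)) of Hba-a1, Hba-a2, Hbb-bs, Hbb-bt and Alas2 in 7 comparisons, with 95% intervals as horizontal lines and a ring around called values. The single call is Hba-a2 with against without an IL-10 agent, at 0.98.

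When IL-10-Fc and BF10 were pooled against Ctrl-IgG and aCSF1R, 1 of 5 genes was called, Hba-a2, and 43.2% of all genes, 14.6% higher and 28.6% lower. Hba-a2 was 0.98 higher on the log2 scale (SE 0.36, limma adjusted p = 0.0441). Hbb-bs was 0.98 (SE 0.41, limma adjusted p = 0.0727), Hba-a1 0.94 (SE 0.39, limma adjusted p = 0.0655), Hbb-bt 1.03 (SE 0.52, limma adjusted p = 0.121) and Alas2 0.41 (SE 0.25, limma adjusted p = 0.183). Values of the 6 libraries with and the 6 without IL-10 overlapped for 5 of 5 genes, whereas 27.3% of all tested genes did not overlap. The median of all genes was -0.30, so each of the 5 genes stood above it, and the sign of 5 of 5 was the same under the other scalings. The call itself was lost with TPM, with no filter, with the FPKM sum as a covariate and without the 4 libraries of highest FPKM sum. It was also lost without Ctrl-IgG 1, Ctrl-IgG 2, aCSF1R 1, aCSF1R 2, IL-10-Fc 1, BF10 1 or BF10 2. It grew to 3 of 5 genes (the alpha globins and Hbb-bs) without Ctrl-IgG 3 and to 4 of 5, the 4 globins, without IL-10-Fc 3. Calls over all genes were 6832 with all libraries, 6273 without Ctrl-IgG 3 and 8448 without IL-10-Fc 3. Without the 4 libraries of highest FPKM sum, Hbb-bt turned to -0.17 (limma, not called).

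The difference between libraries with and without IL-10 was not the same in the 2 sets by title number, in a comparison added after seeing the data. Among those numbered 4 or under, limma called 5 of 5 genes and 61.1% of all genes. Hbb-bt was 2.42 higher with IL-10 on the log2 scale (SE 0.31, limma adjusted p = 6.2e-05), Hbb-bs 2.02, Hba-a2 1.63, Hba-a1 1.62 and Alas2 0.85. Values with and without IL-10 did not overlap for 3 of 5 genes (Hba-a1, Hbb-bs and Hbb-bt, each higher), against 57.8% of all tested genes in either direction and 17.3% higher with IL-10. The FPKM sums were 855961 to 976950 in the 3 libraries with IL-10 and 657090 to 819001 in the 4 without. These 3, IL-10-Fc 1, IL-10-Fc 2 and BF10 1, were already seen to be the highest for Hbb-bs and Hbb-bt. Among libraries with IL-10, a low title number and a high FPKM sum cannot be told apart, and their part in the result was not tested.

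Among those numbered 5 or over, 0 of 5 genes were called against 30.5% of all genes, and 0 of 5 at an unadjusted p under 0.05. The log2 values were -0.74 for Hbb-bt, -0.43 for Hbb-bs, -0.24 for Alas2, -0.13 for Hba-a1 and -0.01 for Hba-a2 (limma, not called). Here 3 of 5 genes (Hbb-bs, Hbb-bt and Alas2) lay lower in every library with IL-10 than in the 2 without, as did 41.8% of all tested genes, and 71.4% did not overlap in either direction.

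The contrast between these differences was called for 2 of 5 genes and 19.4% of all genes. It was -3.17 for Hbb-bt (SE 0.48, limma adjusted p = 0.0217) and -2.45 for Hbb-bs (SE 0.50, limma adjusted p = 0.0239). Hba-a1 (-1.75, limma adjusted p = 0.0514), Hba-a2 (-1.64, limma adjusted p = 0.0546) and Alas2 (-1.09, limma adjusted p = 0.0673) were not called.

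Other globins and several genes that define red cells were under 1 FPKM in each library, among them 7 of the 15 listed membrane genes. The 7 embryonic and minor globins listed were under 1 FPKM in each library, 4 of them at 0 throughout, with a maximum of 0.28 FPKM for Hbq1b. Slc4a1, the band 3 anion exchanger, was at most 0.27 FPKM, and the erythroid transcription factors Gata1 and Klf1 at most 0.16 and 0.69. Rhag, Epb42 and Hemgn reached at most 0.02, 0.23 and 0.27 FPKM. Higher levels were seen for Rhd, at up to 11.2 FPKM, and for Ank1, the ankyrin of the red cell membrane that other cells also make, which was at 0.17 to 3.17 FPKM without IL-10 and 0.11 to 0.86 FPKM with it.

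**Figure D5:**
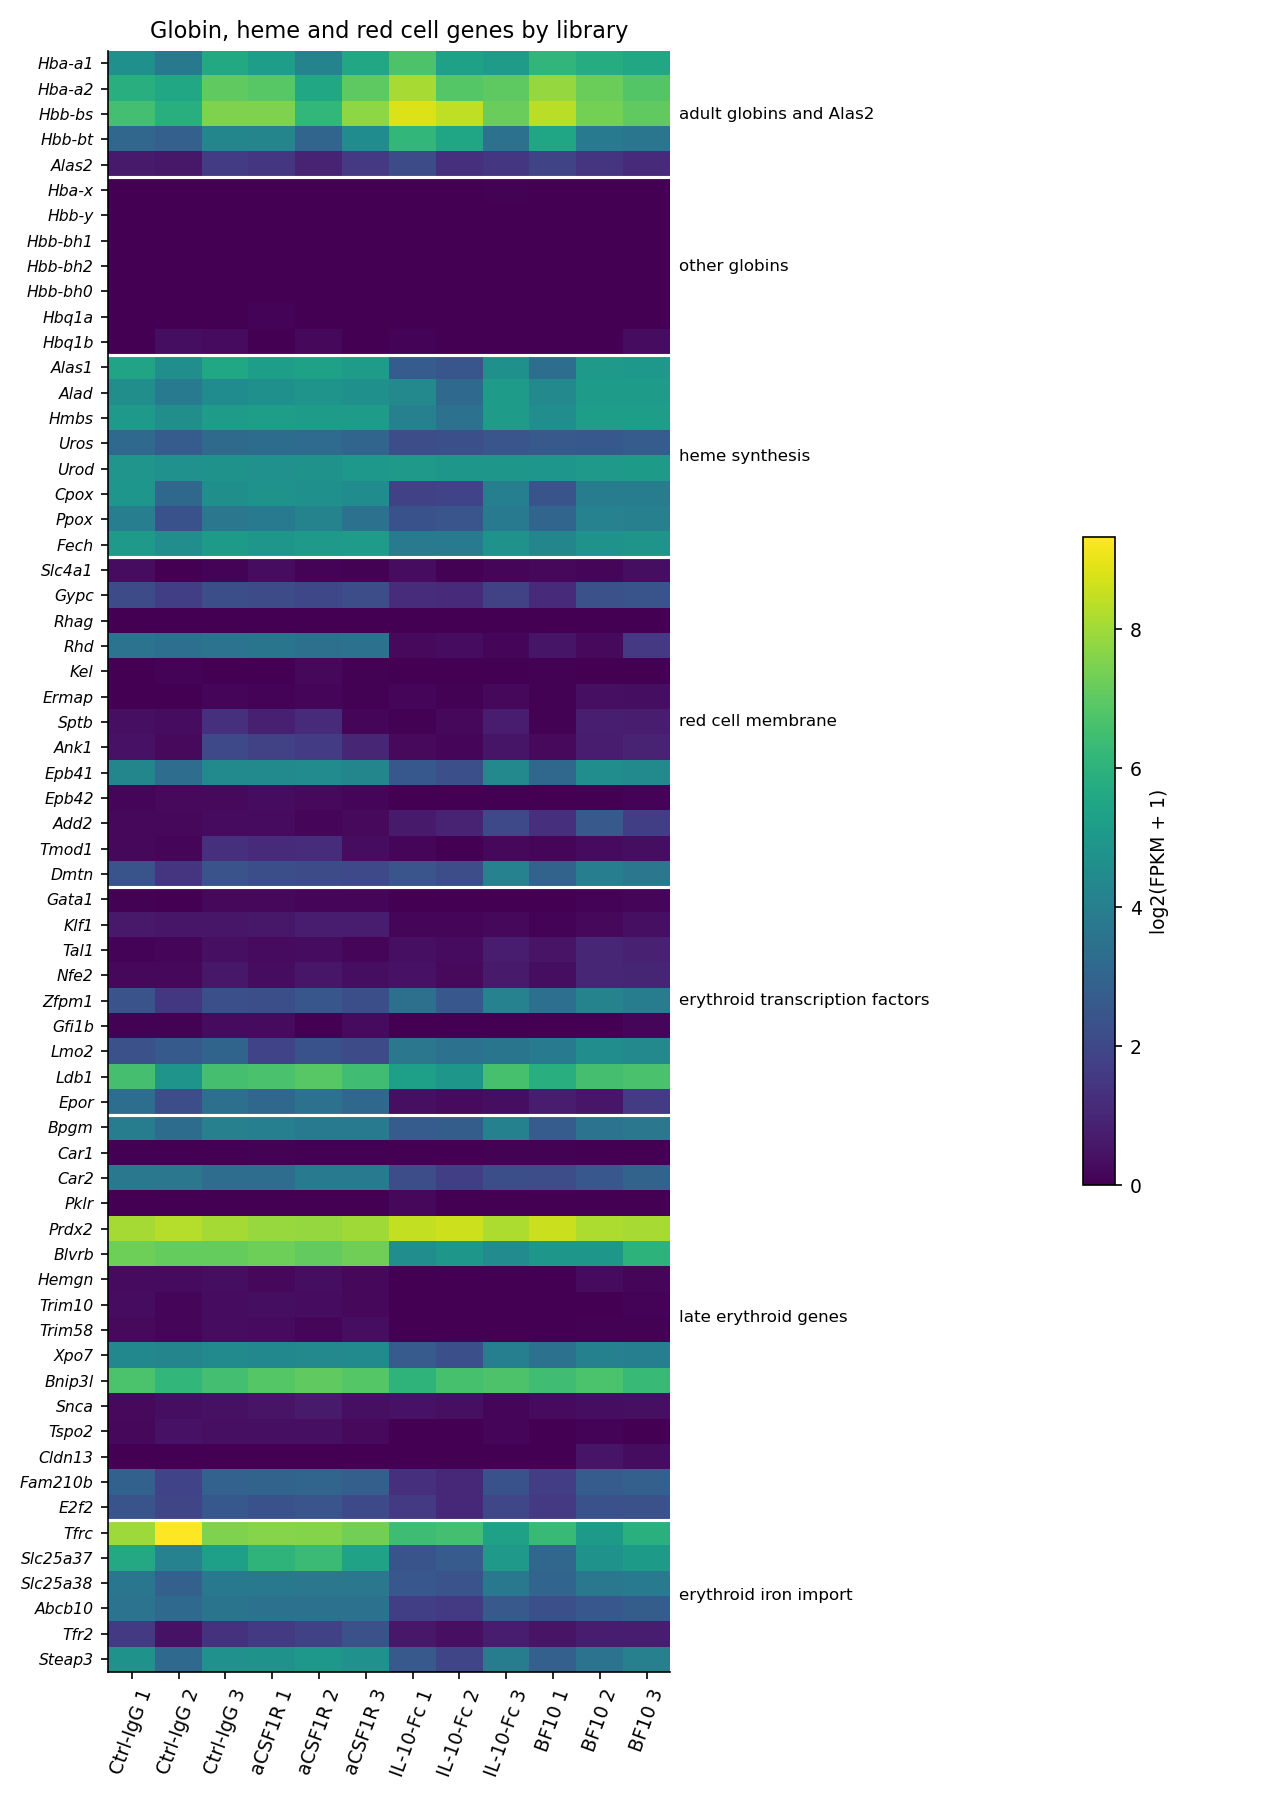
Heat map of log2(FPKM + 1) of globin, heme synthesis and red cell genes (vertical) in 12 libraries ordered by group (horizontal). Each adult globin is at 6.17 FPKM or more in each library, while Slc4a1 and Gata1 stay under 1 FPKM.

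Of 55 listed heme and red cell genes, 54 were in the table and 33 passed the filter. With against without an IL-10 agent, limma called 4 of these 33 higher and 13 lower, with a median of -0.60 on the log2 scale against -0.30 over all genes, of which 43.2% were called. Without the 4 libraries of highest FPKM sum, 4 were higher and 11 lower, against 3010 and 3825 of all 15813 genes. Limma called 0 of 33 between aCSF1R and Ctrl-IgG, between BF10 and IL-10-Fc and in the contrast with the sum, where 1, 3 and 1 (437, 828 and 412 of all genes) had an unadjusted p under 0.05. Against Ctrl-IgG, 2 were higher and 9 lower in IL-10-Fc, and 4 higher and 6 lower in BF10, where 33.7% and 24.9% of all genes were called. Against aCSF1R, 3 were higher and 7 lower in BF10, with 25.0% of all genes called. The share of this list called was thus near that of all genes in these 3 comparisons. The number called in IL-10-Fc against Ctrl-IgG fell from 11 to 7 without Ctrl-IgG 1, 7 without Ctrl-IgG 3 and 6 without IL-10-Fc 1, and went up to 20 without IL-10-Fc 3. Calls over all genes moved the same way, from 5326 to 3565, 4093, 3667 and 8042.

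Of 8 heme synthesis genes, 3 fell by limma: Alas1, the form of the first enzyme outside red cells, by 1.32 on the log2 scale, Cpox by 1.45 and Uros by 0.65. Over all genes, 28.6% were called lower with IL-10. Fech, which puts iron into heme, stood at -0.58 (limma adjusted p = 0.0335), short of the fold required. Alas1 was 22.65 to 46.15 FPKM without IL-10 and 4.70 to 31.89 with it, so the sets overlapped. The summed level of the 8 genes was 77.8 to 116 FPKM in the IL-10 libraries among the 4 of highest FPKM sum and 125 in Ctrl-IgG 2. It was 182 to 196 FPKM in the other 3 libraries with IL-10 and 198 to 209 in the other 5 without. Without those 4 libraries, limma called Cpox and Uros lower, at -0.74 and -0.65, and Alas1 was -0.51, short of the fold required.

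Iron import genes fell as well, 5 of 6 by limma, against 28.6% of all genes. Tfrc, the transferrin receptor of dividing cells and erythroblasts, fell by 1.96 on the log2 scale and was 159 to 641 FPKM without against 32.5 to 92.3 FPKM with IL-10. Slc25a37, the mitochondrial iron importer mitoferrin, fell by 1.63, Steap3 by 1.37, Abcb10 by 1.22 and Tfr2 by 0.91. Tfr2 was under 1 FPKM in each library with IL-10 and passed the filter only through those without. The sets did not overlap for Tfrc or for Abcb10, which was 8.09 to 10.97 FPKM without and 2.00 to 5.76 FPKM with IL-10. Nor did they for 27.3% of all tested genes, in either direction. All 5 iron import genes were also called lower without the 4 libraries of highest FPKM sum, as were 3825 of all 15813 genes.

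Among 7 tested membrane genes, Add2 rose by 1.31 and Dmtn by 1.13 on the log2 scale, both parts of the membrane skeleton. Add2 was 0.12 to 0.21 FPKM without IL-10 and 0.58 to 5.09 FPKM with it, so it passed the filter only through the libraries with IL-10. Rhd, a blood group protein of the red cell, fell by 3.01, from 9.54 to 11.2 FPKM in the libraries without IL-10 to 0.10 to 1.93 FPKM in those with it. Of 4 tested transcription factors and receptors, Lmo2 and Zfpm1 rose by 1.55 and 1.40, and Epor, the erythropoietin receptor, fell by 2.48. The libraries without IL-10 carried Rhd and Epor past the filter, with Epor at 3.73 to 10.1 FPKM there and 0.21 to 2.04 FPKM with IL-10. Of 8 tested late erythroid genes, Blvrb fell by 2.22, Car2, a carbonic anhydrase, by 1.31, and Xpo7 by 0.93. Beside these 3 lists, limma called 43.2% of all genes with against without IL-10, 14.6% higher and 28.6% lower. Without the 4 libraries of highest FPKM sum, Xpo7 was -0.34 and was not called. Under 4 other scalings, 0 of 68 values of these 17 called genes changed sign.

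Of 9 tested genes that clear free hemoglobin, limma called 2 higher and 3 lower with IL-10, against 14.6% and 28.6% of all genes. Hp, which encodes the hemoglobin binder haptoglobin, rose by 2.50 on the log2 scale by limma and Lrp1, a receptor for heme-bound hemopexin, by 1.34. Hmox1, which breaks down heme, fell by 2.59, Slc48a1, a heme transporter, by 2.01, and Ftl1, the ferritin light chain, by 0.80. Hmox1 was 115 to 320 FPKM without IL-10 and 15.7 to 106 FPKM with it. Without the 4 libraries of highest FPKM sum, Ftl1 was -0.42 and was not called, while Cd163, also among the 9, was called higher at 1.54.

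Markers of other cells in the tumor also differed with the IL-10 agents. With against without IL-10, 14.6% of all genes were called higher and 28.6% lower. Of 10 endothelial genes, 1 was called, Emcn at 1.15 on the log2 scale (limma), and the summed level was 50.7 to 132 FPKM in Ctrl-IgG, 100.3 to 142 in aCSF1R, 71.6 to 92.8 in IL-10-Fc and 98.1 to 150.1 in BF10. Platelet genes, which also come with blood, passed the filter in 4 of 12 cases, with Pf4 1.41 higher and Itga2b 1.17 lower by limma. Under 1 FPKM in each library were 7 of the 12, among them Gp9 at most 0.57 FPKM, and Ppbp was at most 3.48 FPKM. The cell source of Pf4 was not tested. Neutrophil genes were called higher in 9 of 11, with sums of 31.65 to 310 FPKM in Ctrl-IgG, 181 to 340 in aCSF1R, 1056 to 4597 in IL-10-Fc and 560 to 1678 in BF10. Among these 11, Ltf, Ngp, Mpo and Elane were under 1 FPKM in each library without IL-10 and passed the filter only through those with it.

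Macrophage genes were called higher in 5 of 8 and simple epithelial genes in 5 of 5, against 14.6% of all genes. The epithelial genes Krt8, Krt18 and Krt19 were under 1 FPKM in each library without IL-10 and passed the filter only through those with it. Sums of the simple epithelial genes were 0.86 to 8.86 FPKM in Ctrl-IgG, 1.53 to 6.17 in aCSF1R, 511 to 1286 in IL-10-Fc and 871 to 1347 in BF10. Skeletal muscle genes were called lower in 5 of 8, against 28.6% of all genes, with sums of 32.1 to 1010 FPKM in Ctrl-IgG, 87.05 to 649 in aCSF1R, 6.71 to 9.73 in IL-10-Fc and 8.4 to 96.7 in BF10. The libraries without IL-10 carried Acta1, Ckm, Myh4, Myh1, Tnnc2 and Pvalb past the filter. Of 9 keratinocyte genes, 0 were called by limma and 5 (8876 of all genes) had an unadjusted p under 0.05. Their sums were 2.49 to 2016 FPKM in Ctrl-IgG, 3.33 to 2033 in aCSF1R, 24.3 to 36.8 in IL-10-Fc and 18.2 to 26.7 in BF10. The part of these cells in the globin differences was not tested.

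The genes whose levels were most like the mean of the 5 were sought over 15808 others, by Pearson's r of log2(FPKM + 1) over the 12 libraries. The highest values were 0.897 for Map1lc3a, 0.852 for Dcn, 0.849 for Rab1b, 0.844 for Fcgrt and 0.843 for 1190005I06Rik. Gm42846 (0.839), Nrtn (0.836), Mcat (0.830), Mrpl52 (0.8295) and Gm26879 (0.826) followed. Each of the 5 genes had r of 0.905 to 0.965 with the mean of the other 4. The list was unsteady: of these 10 genes, 5 were also among the top 10 by Spearman's rho, 4 with the group means removed and 1 without the 2 farthest libraries.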

How the data were processed

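Libraries were stranded mRNA preparations from whole tumors, sequenced on an Illumina NextSeq instrument. The submitters' processing notes name STAR 2.7.5a, RSEM 1.3.3 and DESeq2 1.30.0 and the build GRCm38 (mm10). The authors deposited FPKM values for 55401 genes per library, not scaled between libraries. They also deposited 4 comparison tables (fold changes and p-values from DESeq2), which were not used. FPKM are not counts, so limma 3.58.1 (R 4.3.3, trended eBayes) was fitted to log2(FPKM + 1) over all 12 libraries without covariates, for 15813 genes that reached 1 FPKM in 3 or more libraries. A fold change on this scale understates the change of low genes. The Benjamini-Hochberg adjustment ran over these genes. Ratios and shares were compared by two-sided exact permutation tests (scipy 1.17.1), with 0.01 FPKM added for ratios. Absolute depth is not given by FPKM. Replicate numbers follow sample order and name libraries only. The scripts were tested on simulated data.

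Genes named are the 5 members, the listed genes of the red cell and other cell lists, and the 10 genes most like the members. A few listed genes are not reported here. Members and lists were chosen with earlier results of these data known. Sets by title number were tested for ratios and shares as a chosen alternative. Their limma fits and all settings without the 4 libraries of highest FPKM sum were chosen after seeing the data. Other alternatives were other pseudocounts, filters, scalings, terms and left-out libraries. Gene positions came from GENCODE on GRCm38, and sequences from GENCODE transcripts and RefSeq promoters.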

Additional observations from a re-analysis of the deposited data

Results flagged for a closer look

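The Hbb-bs to Hbb-bt log2 ratio of Ctrl-IgG 1 was 3.64, the highest of the 6 libraries without an IL-10 agent. Its gap to the nearest library was 0.673 of the range of those 6, above Dixon's critical value for 6 samples. Chance marks about 1 in 20 groups in this way, and 18 sets were examined.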

How the results depend on the processing

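No paired analysis was possible because replicate numbers only follow sample order. With against without IL-10, the number of the 5 genes called was 0 with no filter, TPM, TPM without the adult globins, an FPKM-sum covariate and without the 4 libraries of highest FPKM sum, 3 with median-of-ratios factors, and 0 to 4 leaving out 1 library. In IL-10-Fc against Ctrl-IgG it was 2 with median-of-ratios factors and 0 to 3 leaving out 1 library, and in BF10 against Ctrl-IgG 0 to 1. Over all genes, median-of-ratios factors gave 6465 calls with against without IL-10 and 5200 in IL-10-Fc against Ctrl-IgG. Leaving out 1 library gave 5950 to 8448 calls with against without IL-10. Against Ctrl-IgG, it gave 3565 to 8042 in IL-10-Fc and 2603 to 3739 in BF10. Heme and red cell genes called in IL-10-Fc against Ctrl-IgG numbered 11, 6 with those groups fitted alone, 17 with a title term, and 6 to 20 leaving out 1 library. Calls over all genes were then 5326, 2734, 6722, and 3565 to 8042.

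With against without IL-10, the globin share difference (log2) was 1.02 for FPKM as deposited (exact permutation p = 0.0433), 1.36 with median-of-ratios factors (exact permutation p = 0.0368), -0.19 at title numbers of 5 or over, and 0.64 to 1.03 leaving out 1 library. The Hbb-bs to Hbb-bt difference was -0.53 at title numbers of 4 or under, 0.35 at 5 or over, 0.26 without the 4 libraries, and -0.21 to 0.0064 leaving out 1 library. The Hba-a1 to Hba-a2 difference was 0.027 at 4 or under and -0.095 to 0.047 leaving out 1 library. Alpha to beta was 0.095 percentage points as a share, 0.43 at 5 or over, 0.44 without the 4 libraries, and -0.10 to 0.20 leaving out 1 library.

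These uncalled log2 differences changed sign. In BF10 against IL-10-Fc they were -0.35 for Hba-a1 (median-of-ratios), 0.22 for Hba-a2 (TPM, with or without the globins), 0.0034 and 0.0033 for Alas2 (the same), and 0.15 for Hba-a2 and 0.082 for Hbb-bt (covariate). Without the 4 libraries, in that comparison they were 0.027 for Hba-a2, 0.032 for Hbb-bs and 0.22 for Hbb-bt. Against Ctrl-IgG, they were then -0.21 for Hba-a1 in aCSF1R, and -0.047 for Hba-a1 and -0.15 for Hbb-bt in IL-10-Fc. BF10 against aCSF1R was then -0.19 for Hbb-bt and -0.036 for Alas2, Hbb-bt with against without IL-10 -0.17, and Hba-a1 against the sum of parts 0.74. Leaving out 1 library, ranges crossed 0 for Hba-a1 in aCSF1R against Ctrl-IgG (-0.21 to 0.75). In BF10 against IL-10-Fc they did for Hba-a1 (-0.21 to 0.58), Hba-a2 (-0.30 to 0.37) and Alas2 (-0.35 to 0.10). Against aCSF1R they did for Hbb-bs (-0.045 to 0.74), Hbb-bt (-0.19 to 0.72) and Alas2 (-0.036 to 0.33), and against the sum for Hba-a1 (-0.66 to 0.32) and Hba-a2 (-0.84 to 0.0070). The cause was not tested. Alas2 near 1 FPKM and the unknown absolute depth limit these values.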
